A study of Homo sapiens with 12 samples.

Results

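The genes described here are 9 components of interferon signalling: the receptor-associated kinases JAK1 and TYK2, the transcription factors STAT2, IRF9, IRF1, IRF2, IRF3 and IRF7, and the signalling inhibitor SOCS1. They were picked by symbol, as components of the pathway and with earlier results of these data known, out of 25268 gene symbols listed, and all 9 were among the 14676 genes expressed highly enough to be tested. The cells were HEK293, an established human embryonic kidney line, transfected with 2 µg of a plasmid carrying His-HA-tagged RBMX (pCMV6-HIS-HA-RBMX) or, as control, with the mock empty vector. RBMX is an X-linked RNA-binding protein best known as a regulator of splicing, and the question was how raising its level affects the total and the ribosome-engaged transcripts of these cells. RNA was collected 48 h after transfection from 6 cultures, 3 biological replicates per vector. Each lysate, treated with cycloheximide to hold ribosomes on their mRNAs, was spread on a sucrose gradient, where transcripts carrying several ribosomes sink into the heavy, polysomal fractions. Every culture gave a total library, pooled from all its fractions, and a polysomal library, so there were 12 libraries, 3 in each group of vector and fraction. Transfection was transient, so the cultures may hold cells with and without the plasmid, and in such bulk RNA fewer cells expressing a gene and less of its RNA per cell cannot be told apart.

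Type I interferons bind a receptor whose chains carry the tyrosine kinases TYK2 and JAK1. These kinases phosphorylate STAT proteins, STAT2 among them, and STAT2 joins IRF9 in the complex ISGF3, which binds the interferon-stimulated response element (ISRE) in the promoters of antiviral genes. A different element, the gamma-activated site (GAS), is bound by STAT dimers. IRF3 and IRF7 act earlier: when cytosolic sensors such as RIG-I and MDA5 detect viral RNA, both factors are phosphorylated and switch on the interferon genes themselves. IRF1 is an activator that is itself strongly induced by interferon, IRF2 competes with it for the same DNA and mostly represses, and SOCS1 is a feedback inhibitor that blocks JAK1 and TYK2. Several of these components, among them STAT2, IRF9, IRF7, IRF1 and SOCS1, are known to be interferon-inducible, while JAK1 and IRF3 are known as constitutively expressed.

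The promoters of these genes were read from RefSeq on GRCh38.p14, as the stretch from 250 bases before to 50 bases after each annotated start. Entries were found for 6 of the 9 genes, with none for IRF2, IRF3 and IRF7. An ISRE was searched as GAAANNGAAA on either strand and a GAS as TTCNNNGAA, which reads the same on both strands. The windows below are shown because they hold the only matches among these genes. Beside them stand ISRE windows of RSAD2, which encodes the antiviral protein viperin, and IFIH1, which encodes the RNA sensor MDA5. Of the other genes described below, OAS2, IFIT2, DDX58, USP18 and SOCS5 had no promoter entry and could not be searched. Among those searched, XAF1, IRF8, SOCS3, SOCS4, STAT5A, STAT5B and IFNAR1 held neither motif, and IL10RB held a GAS. Genes named only for their correlation, such as MX1 and IFIT3, were not examined singly. Capitals mark the match, and each sequence is given 5′ to 3′ on the strand of its gene.
IRF1 (GAS, chr5:132490869-132490917, minus strand): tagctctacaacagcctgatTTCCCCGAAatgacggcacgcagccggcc
IRF9 (GAS, chr14:24161182-24161230, plus strand): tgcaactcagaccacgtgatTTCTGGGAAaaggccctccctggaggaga
SOCS1 (ISRE, chr16:11256288-11256337, minus strand): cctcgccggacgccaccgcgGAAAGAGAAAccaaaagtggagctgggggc
IFIH1 (ISRE, chr2:162318685-162318725, minus strand): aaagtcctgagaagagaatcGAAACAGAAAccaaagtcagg
RSAD2 (ISRE in reverse orientation, chr2:6877612-6877661, plus strand): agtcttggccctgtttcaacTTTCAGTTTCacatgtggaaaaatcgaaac
The GAS of IRF1 began 124 bases before its start, that of IRF9 63 bases before, and the ISRE of SOCS1 113 bases before. IFIH1 held another pair of overlapping ISRE matches in reverse orientation, the first of them beginning 159 bases before its start. Neither motif was found in the promoter windows of STAT2 and TYK2 or in the 3 windows of JAK1. A GAS is common by its letters alone, present in 7.66% of all 35116 promoters, and an ISRE was present in 3.57%. Among the interferon-stimulated target genes described below, 33 of the 52 matched promoters (63.5%) held an ISRE. A match in these windows is a description of the letters and says nothing about binding.

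Levels are given as FPKM, the fragments mapped to a gene divided by its transcript length and by the sequencing yield of the library, which allows levels to be compared between genes. How many fragments each library held is unknown, because only 11.5% to 23.5% of the lowest genes shared a common step with the reference library, and therefore no detection limit is given. RBMX itself checked the labels, at 108 to 147 FPKM in control and 1460 to 2073 in RBMX total libraries, and at 87.4 to 148 and 1072 to 1328 in polysomal libraries. Of the markers fixed for HEK293, all 6 were detected in every library, from PAX2 at 2.49 to 8.80 FPKM to the filament gene VIM at 217 to 577. Among 4 blood cell and 4 fibroblast markers, PTPRC, CD3E, COL1A2 and DCN stayed under 0.07 FPKM, while CD14 (up to 1.99), ITGAM (up to 0.551), LUM (up to 1.23) and COL1A1 (up to 8.61) were detected. The summed level of the blood cell markers was 1.27 to 1.97 FPKM in control and 1.56 to 2.56 in RBMX total libraries, and 1.34 to 1.52 and 1.72 to 2.28 in polysomal libraries. That of the fibroblast markers was 4.01 to 5.90 and 6.53 to 7.50 in total libraries, and 4.38 to 6.89 and 7.79 to 9.46 in polysomal libraries. These ranges lay higher in RBMX cells, with an overlap only for the blood cell markers in total RNA, and their part in the results was not tested.

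Replicate 3 stood apart from the others across all genes in control cells, and by its levels of the genes described here in RBMX cells. Control replicate 3 differed from control replicates 1 and 2 by a median of 0.187 to 0.236 on the log2 scale across the genes tested, against 0.0815 in total and 0.045 in polysomal RNA between replicates 1 and 2. In the control cells its HEK293 markers were also lower, summing to 429 FPKM in total RNA against 854 and 890 in replicates 1 and 2. The RBMX cultures differed less from each other across all genes, by medians of 0.083 to 0.174. In polysomal RNA, RBMX replicates 1 and 3 were the closest pair, at 0.111. However, RBMX replicate 3 had the lowest level of each of the 9 genes except JAK1, in both fractions. Results below are therefore also given without replicate 3 of both vectors, a choice made after the values were seen that leaves 2 cultures against 2. It rested partly on the levels of these 9 genes themselves. Leaving out their lowest RBMX library can raise their fold changes and narrow their spread. The adjusted p-values without replicate 3 are therefore a description and no separate support.

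In control cells all 9 genes were expressed, over a wide range of levels. In total RNA the order of mean FPKM ran from IRF3 (44.8) and IRF7 (41.8) through IRF9 (29.7), TYK2 (22.3), STAT2 (16.6) and JAK1 (16.4) to IRF2 (5.86), IRF1 (3.41) and SOCS1 (0.765). The libraries of IRF3 overlapped those of IRF7, those of IRF7 overlapped IRF9, and those of STAT2 overlapped JAK1, so these neighbours are not ordered beyond their spread. In RBMX cells IRF7 stood first at 117 FPKM, with no overlap with IRF9 (58.3), the next gene. IRF3 (55.6), STAT2 (51.4), TYK2 (27.2), JAK1 (16.7), IRF1 (9.23), IRF2 (8.68) and SOCS1 (2.28) followed. Neighbours overlapped from IRF9 down to TYK2 and between IRF1 and IRF2. The gene with the highest mean was thus IRF3 in control cells and IRF7, the factor that amplifies interferon production, in RBMX cells.

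**Figure D1:**
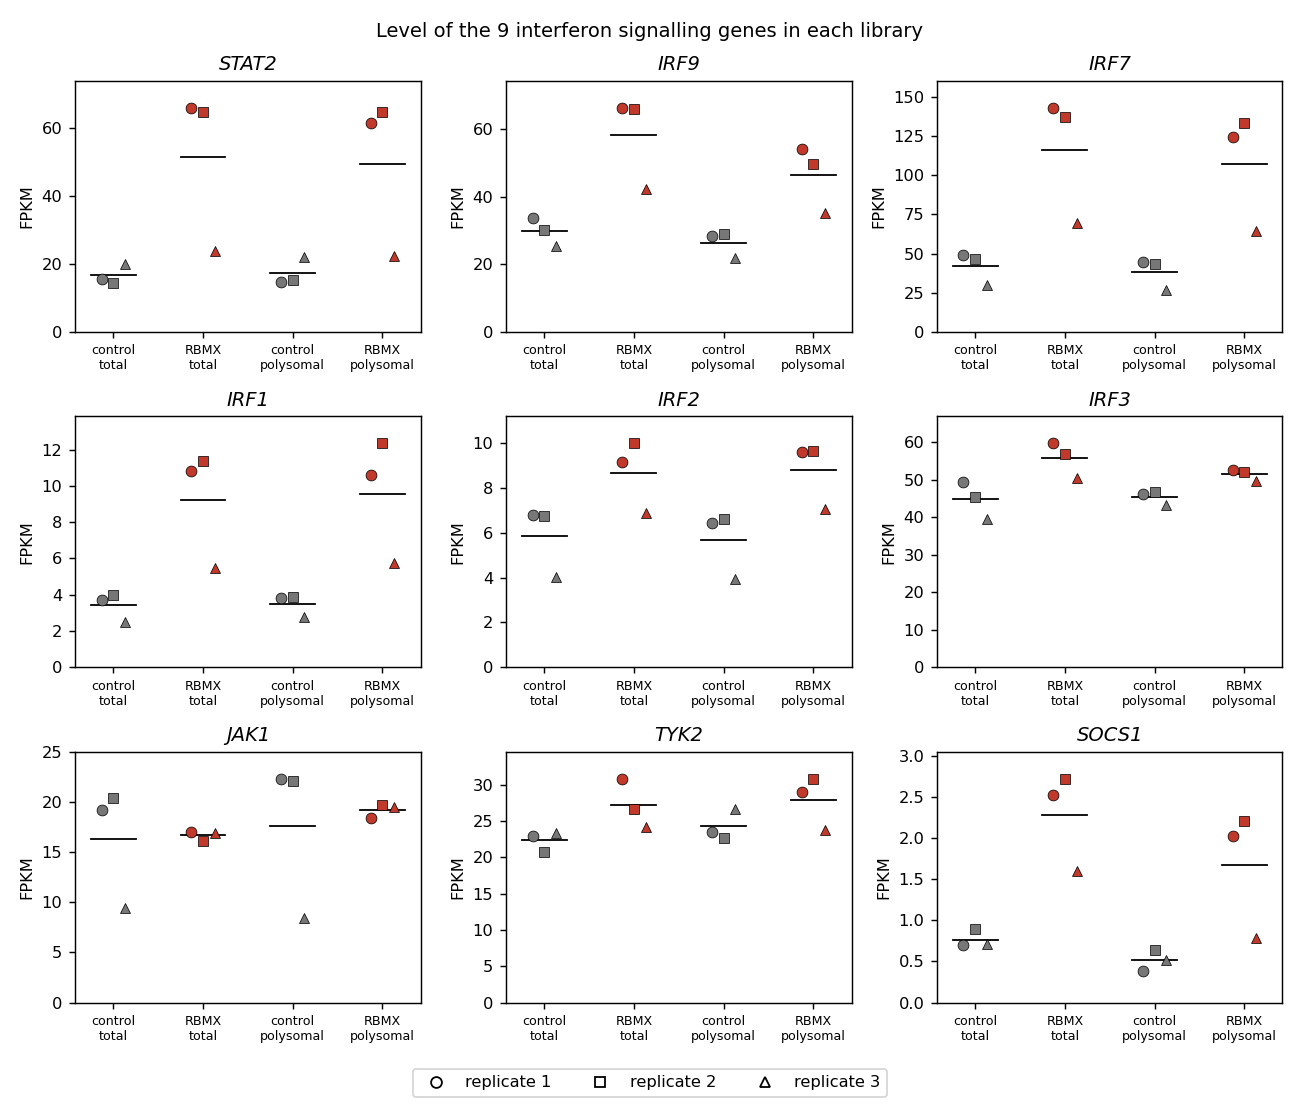
Level of each of the 9 genes in every library (vertical axes, FPKM, each starting at 0), for control (grey) and RBMX (red) cells in total and polysomal RNA. Circles, squares and triangles are replicates 1, 2 and 3 and the line is the group mean. For STAT2, IRF7, IRF1 and SOCS1 RBMX replicates 1 and 2 lie far above the controls and replicate 3 lies nearer to them, and for JAK1 control replicate 3 lies far below the other controls.

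In total RNA the RBMX libraries lay above the control libraries for 8 of the 9 genes, JAK1 being the exception, and the largest differences were those of STAT2, IRF7, IRF1, IRF9 and SOCS1. None of the 9 passed the threshold of an adjusted p of 0.05 (limma, Benjamini-Hochberg over all genes tested), which 24 genes, 0.164% of those tested, passed. An unadjusted p under 0.05 was reached by 7 of the 9, against 18.8% of all genes in either direction and 7.93% in the upward direction. Of all genes tested, 11.9% had all 3 RBMX libraries above all 3 control libraries. The median log2 fold change of the 9 genes was 0.88, against 0 over all genes tested. With 3 cultures against 3, a two-sided exact permutation test cannot give a p below 0.1.

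In polysomal RNA the picture was alike: 7 of the 9 genes had no overlap between vectors, all higher in RBMX cells, with JAK1 and TYK2 overlapping, against a background of 10.0% of genes. Again none passed the threshold, which 7 genes, 0.0477% of those tested, passed, while 7 of the 9 had an unadjusted p under 0.05 against 11.7% of all genes in either direction and 5.16% in the upward direction. The median log2 fold change was 0.77, against 0 over all genes tested. The polysomal and total libraries of a culture share its lysate, so the polysomal values are no second, independent set of samples. When replicate 3 of both vectors was left out, 5 of the 9 genes were past the threshold in total RNA (background 2.09%) and 6 in polysomal RNA (background 2.37%), every one of them higher in RBMX cells. Because RBMX replicate 3 was set aside partly for its low levels of these same genes, these counts are a description only.

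STAT2 and IRF9 are partners in ISGF3. STAT2 lies on chromosome 12 from 56341597 to 56360155 on the minus strand in GENCODE v29 on GRCh38, the annotation used for every gene position. Its gene starts can differ from the RefSeq starts behind the promoter windows. STAT2 was at 15.6, 14.2 and 19.8 FPKM in control total replicates 1 to 3 and at 65.8, 64.6 and 23.7 in RBMX total replicates 1 to 3. Replicates 1 and 2 of the RBMX cells were several times above every control, whereas replicate 3 was only just above the highest control. The mean was 3.10-fold higher, with a log2 fold change of FPKM + 1 of 1.45 (SE 0.42, limma adjusted p = 0.189). Over the control mean, the 3 RBMX cultures stood at 3.98, 3.90 and 1.43 times. In polysomal RNA STAT2 was at 14.8, 15.1 and 22.1 FPKM in control and 61.4, 64.5 and 22.2 in RBMX cells, so that RBMX replicate 3 all but coincided with control replicate 3. The polysomal log2 fold change was 1.34 (SE 0.44, limma adjusted p = 0.403). Without replicate 3 of both vectors it was 2.06 in total RNA (adjusted p = 0.00383 by limma) and 2.01 in polysomal RNA (adjusted p = 0.00379 by limma), the largest of the 9 genes.

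IRF9, the DNA-binding part of ISGF3, was at 33.7, 30.1 and 25.4 FPKM in control total replicates 1 to 3 and at 66.4, 66.0 and 42.4 in RBMX total replicates 1 to 3. All 3 RBMX libraries were above all controls. Replicate 3 was the lowest in each vector, unlike for STAT2, where control replicate 3 was the highest control. The log2 fold change was 0.93 (SE 0.21, limma adjusted p = 0.174). In polysomal RNA the values were 28.4, 29.0 and 21.9 FPKM in control and 54.0, 49.8 and 35.3 in RBMX cells, again without overlap, and the log2 fold change was 0.78 (SE 0.20, limma adjusted p = 0.400). Without replicate 3 it was 1.03 in total RNA (adjusted p = 0.0209 by limma) and 0.83 in polysomal RNA (adjusted p = 0.0310 by limma). IRF9 lies on chromosome 14 from 24161053 to 24166565 on the plus strand. In that annotation 48.4% of its exonic bases are shared with AL136295.5 on the same strand, which is not among the gene symbols listed. The fragments of IRF9 therefore cannot all be assigned with certainty.

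IRF7, on chromosome 11 from 612553 to 615999 on the minus strand, is the interferon-inducible factor that drives the later, amplifying phase of interferon gene expression. It was at 48.9, 46.7 and 29.7 FPKM in control and at 143, 137 and 69.3 in RBMX total replicates 1 to 3. Every RBMX library exceeded every control library, and replicate 3 was the lowest within both vectors. The mean was 2.79-fold higher, with a log2 fold change of 1.42 (SE 0.34, limma adjusted p = 0.176). Polysomal IRF7 was at 44.9, 43.3 and 26.8 FPKM in control and 125, 134 and 64.3 in RBMX cells, with a log2 fold change of 1.43 (SE 0.35, limma adjusted p = 0.400). The groups did not overlap there either. Without replicate 3 it was 1.53 in each fraction, with limma adjusted p = 0.00433 in total and 0.0103 in polysomal RNA.

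IRF3, the sensor-activated factor that starts interferon gene expression and is regulated mainly by phosphorylation, differed far less. It was at 49.5, 45.4 and 39.4 FPKM in control and at 59.7, 56.8 and 50.5 in RBMX total replicates 1 to 3, a difference without overlap but with the lowest RBMX library only just above the highest control. The log2 fold change was 0.31 (SE 0.11, limma adjusted p = 0.227). In polysomal RNA it was at 46.1, 46.7 and 43.1 FPKM in control and 52.6, 51.9 and 49.7 in RBMX cells, a log2 fold change of 0.18 (SE 0.065, limma adjusted p = 0.417). These values stayed short of the threshold without replicate 3 as well. IRF3, on chromosome 19 from 49659569 to 49665875 on the minus strand, shares 734 exonic bases (19.3%) with BCL2L12, a gene on the opposite strand, whose mean FPKM in total RNA was 39.7 in control and 41.4 in RBMX cells.

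IRF1 and IRF2 recognise the same DNA element with mostly opposite effects. IRF1, the activator, was at 3.72, 4.01 and 2.49 FPKM in control and at 10.8, 11.4 and 5.49 in RBMX total replicates 1 to 3. The groups were clearly apart, with the lowest RBMX culture above the highest control. The mean was 2.71-fold higher and the log2 fold change 1.18 (SE 0.29, limma adjusted p = 0.176). In polysomal RNA IRF1 was at 3.83, 3.88 and 2.79 FPKM in control and 10.6, 12.4 and 5.73 in RBMX cells, a 2.73-fold higher mean with a log2 fold change of 1.18 (SE 0.28, limma adjusted p = 0.400). Leaving out replicate 3 gave 1.32 in total RNA (adjusted p = 0.00994 by limma) and 1.36 in polysomal RNA (adjusted p = 0.0283 by limma). IRF1 lies on chromosome 5 from 132481609 to 132490798 on the minus strand, and 22.0% of its exonic bases overlap C5orf56 on the opposite strand. Mean C5orf56 was 2.75 FPKM in control and 13.1 in RBMX total libraries. The library kit's handling of strand is not stated in the sources used here, so reads over this overlap cannot be told apart.

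IRF2, the repressor, lies on chromosome 4 from 184387713 to 184474580 on the minus strand. It was at 6.81, 6.76 and 4.02 FPKM in control and at 9.17, 9.99 and 6.86 in RBMX total replicates 1 to 3. RBMX replicate 3 was almost level with control replicates 1 and 2, and control replicate 3 was the lowest library. The log2 fold change was 0.51 (SE 0.22, limma adjusted p = 0.292), less than that of IRF1, although the difference between the genes was not tested. In polysomal RNA IRF2 was at 6.42, 6.59 and 3.95 FPKM in control and 9.62, 9.64 and 7.07 in RBMX cells, a log2 fold change of 0.57 (SE 0.21, limma adjusted p = 0.417). Without replicate 3 of both vectors IRF2 passed the threshold only in polysomal RNA (log2 fold change 0.50, limma adjusted p = 0.0497).

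JAK1 and TYK2 are the kinases bound to the type I interferon receptor. Their genes lie on the minus strand of chromosome 1 from 64833229 to 64966504 and of chromosome 19 from 10350529 to 10380676. JAK1 was at 19.3, 20.4 and 9.46 FPKM in control and at 17.1, 16.2 and 17.0 in RBMX total replicates 1 to 3. The RBMX cultures were close together and lay between control replicate 3 and the other controls. The log2 fold change was 0.10 with a 95% confidence interval from -0.61 to 0.81 (limma adjusted p = 0.878). Polysomal JAK1 was at 22.4, 22.1 and 8.47 FPKM in control and 18.4, 19.7 and 19.5 in RBMX cells, a log2 fold change of 0.23 with an interval from -0.70 to 1.16 (limma adjusted p = 0.800). The direction rested on control replicate 3, in which JAK1 was at 0.477 times the mean of the other total controls. Without that replicate the total value was -0.23 (adjusted p = 0.126 by limma) and the polysomal value -0.20 (adjusted p = 0.247 by limma).

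TYK2 was at 22.9, 20.7 and 23.3 FPKM in control and at 30.7, 26.7 and 24.2 in RBMX total replicates 1 to 3. The groups were apart by less than 1 FPKM between the lowest RBMX and the highest control library. The log2 fold change was 0.27 (SE 0.10, limma adjusted p = 0.246). In polysomal RNA TYK2 was at 23.5, 22.7 and 26.6 FPKM in control and 28.9, 30.8 and 23.8 in RBMX cells, so that RBMX replicate 3 lay within the control range. The polysomal log2 fold change was 0.19 (SE 0.12, limma adjusted p = 0.547), and TYK2 did not pass the threshold without replicate 3 either.

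SOCS1, the feedback inhibitor of both kinases, had the lowest level of the 9 genes in every group. Its gene is short and lies on chromosome 16 from 11254405 to 11256200 on the minus strand. It was at 0.698, 0.891 and 0.706 FPKM in control and at 2.52, 2.72 and 1.59 in RBMX total replicates 1 to 3. All RBMX cultures were well above all controls, and the mean was 2.98-fold higher. The log2 fold change of FPKM + 1, which understates the change of so low a gene, was 0.88 (SE 0.15, limma adjusted p = 0.157), the smallest adjusted p among the 9. In polysomal RNA SOCS1 was at 0.389, 0.637 and 0.512 FPKM in control and 2.02, 2.2 and 0.780 in RBMX cells, without overlap. The mean was 3.25-fold higher and the log2 fold change 0.77 (SE 0.24, limma adjusted p = 0.400). Without replicate 3 of both vectors it was 1.01 in total RNA (adjusted p = 0.0244 by limma) and 1.04 in polysomal RNA (adjusted p = 0.0495 by limma).

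**Figure D2:**
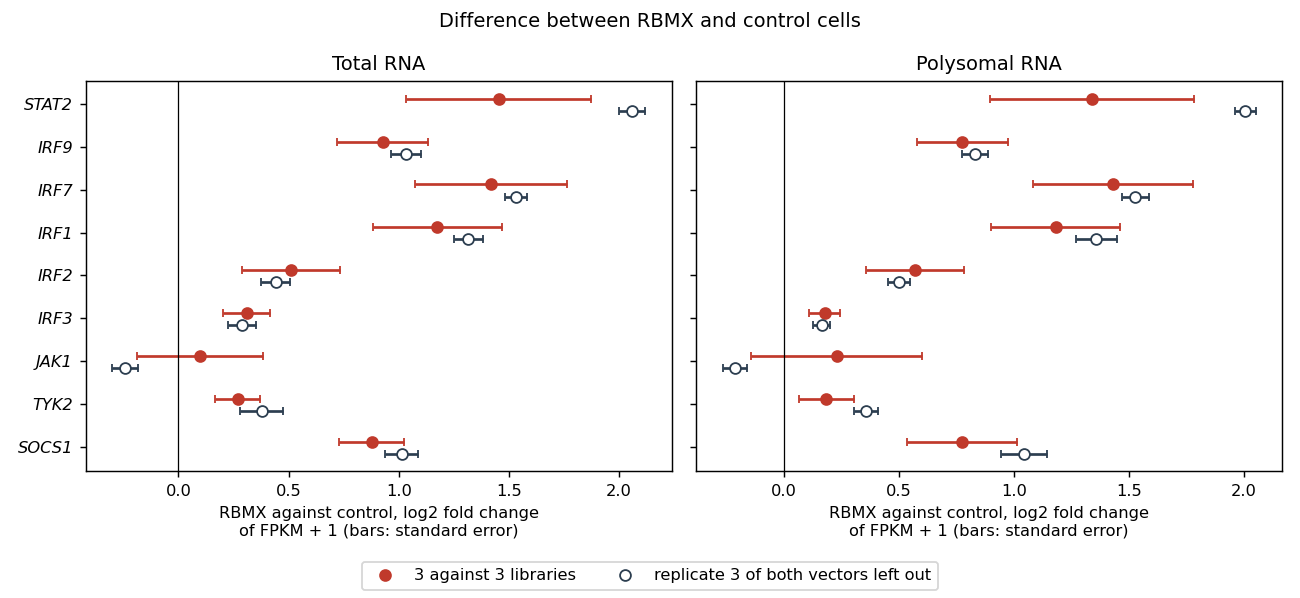
Log2 fold change of FPKM + 1 between RBMX and control cells for the 9 genes in total and polysomal RNA, with bars for the standard error; filled points use 3 cultures against 3 and open points leave out replicate 3 of both vectors. STAT2 moves from 1.45 to 2.06 in total RNA and JAK1 changes sign, while the other genes move less.

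Whether RBMX altered the polysomal level of these transcripts relative to their total level was asked by subtracting the effect in total RNA from that in polysomal RNA. FPKM is relative to the yield of each library, so a shift common to all transcripts would not be seen. The difference between the effects ran from -0.15 for IRF9 to 0.13 for JAK1 on the log2 scale. None of the 9 genes had an unadjusted p under 0.05 in that comparison, which 0.600% of all genes had, none passed the threshold, which 0.0204% of genes passed, and each adjusted p was 1.00 (limma). The 95% confidence intervals were wide, from -1.57 to 1.34 for STAT2 and from -0.42 to 0.15 for IRF3, the narrowest. This fit did not pair the 2 fractions of a culture, so the intervals include the spread between cultures. Their width is therefore no measure of how far the effect varied within cultures. With a block for the culture, none of the 9 genes passed the threshold either.

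Within a culture, the polysomal level of most of these genes was close to the total level. Each level is relative to the yield of its own library, so their ratio is not the share of a transcript on polysomes. The ratio of polysomal to total FPKM, averaged over the 3 control cultures, was 1.04 ± 0.086 (SD, n = 3) for STAT2, 1.04 ± 0.077 (SD, n = 3) for IRF1, 0.915 ± 0.014 (SD, n = 3) for IRF7 and 0.889 ± 0.065 (SD, n = 3) for IRF9. SOCS1 had the lowest ratio, 0.666 ± 0.094 (SD, n = 3) in control and 0.701 ± 0.18 (SD, n = 3) in RBMX cultures. Its 3 control ratios ran from 0.557 to 0.725, under those of every other gene here, and RBMX replicate 3 had 0.490. In the test of polysomal against total RNA in control cells, SOCS1 had a log2 difference of -0.22 (SE 0.079, limma adjusted p = 0.597). It was the only one of the 9 whose polysomal libraries all lay below its total libraries, as 7.31% of all genes did. None of the 9 passed the threshold in this comparison, which 0.0818% of genes passed. IRF9 had a ratio of 0.843 to 0.964 in control and 0.754 to 0.832 in RBMX cultures. The fit given above, which did not pair the fractions, put the difference for IRF9 at -0.15 (SE 0.30). With a block for the culture IRF9 did not pass the threshold either.

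**Figure D3:**
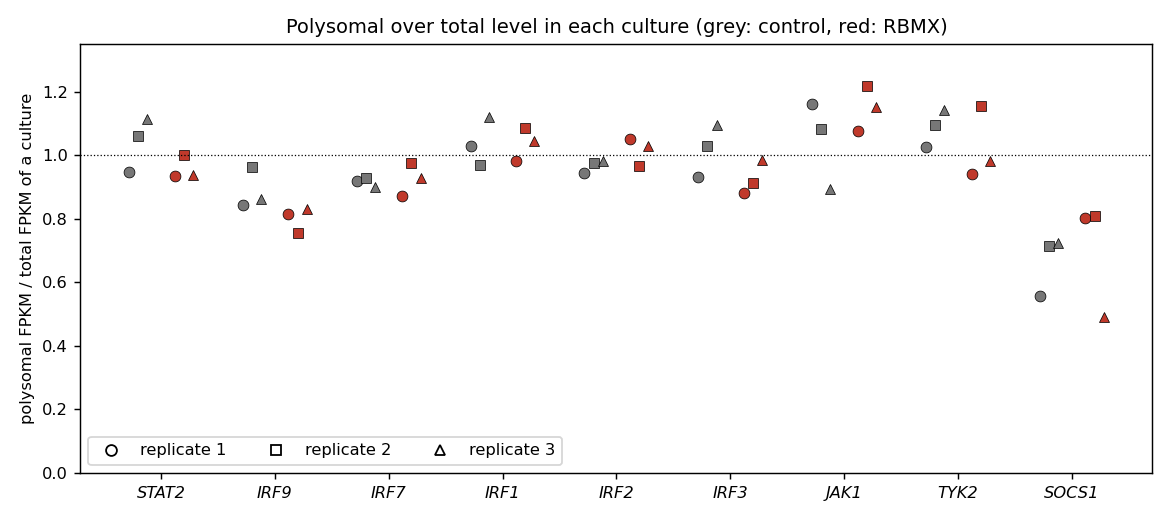
Polysomal FPKM divided by total FPKM of the same culture (vertical axis, starting at 0) for each gene, in control (grey) and RBMX (red) cultures, with the replicate by symbol. Most values lie near 1, marked by the dotted line, and those of SOCS1 lie between 0.490 and 0.810.

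The genes known to act downstream of these factors had the largest differences. A list of 43 interferon-stimulated target genes, such as the IFIT, OAS and MX families, was assembled from general knowledge, with earlier results of these data known, and all 43 were tested. None passed the threshold in either fraction, but each of the 43 had all RBMX libraries above all controls in total and in polysomal RNA. The backgrounds for no overlap were 11.9% and 10.0%. Each also had an unadjusted p under 0.05 (limma) in both fractions, against 7.93% and 5.16% of all genes in the upward direction. Their median log2 fold change was 2.12 in total RNA, with a range from 0.91 to 3.64, and 2.14 in polysomal RNA, with a range from 1.00 to 3.76. Summed over the list, the level was 1775, 1923 and 1102 FPKM in control and 10547, 11006 and 3412 in RBMX total replicates 1 to 3. Replicate 3 was thus the lowest in both vectors, as it was for IRF7 and IRF1. Without replicate 3 of both vectors, 41 of the 43 passed the threshold in total RNA (background 2.09%) and 42 in polysomal RNA (background 2.37%). All of these were higher in RBMX cells. Because RBMX replicate 3 was also the lowest RBMX culture for this list, these counts are a description only.

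OAS2, a sensor of double-stranded RNA that activates RNase L, had the largest log2 fold change of FPKM + 1 in the list. It was at 5.89, 7.26 and 2.39 FPKM in control and at 128, 143 and 19.2 in RBMX total replicates 1 to 3 (log2 fold change 3.64, limma adjusted p = 0.176). RSAD2, whose promoter window is shown above, was at 15.6, 17.9 and 4.69 FPKM in control and 207, 225 and 36.6 in RBMX cells (log2 fold change 3.32, limma adjusted p = 0.177). In both genes RBMX replicate 3 was far below the other RBMX cultures and still above every control. XAF1, a pro-apoptotic gene, was under 1 FPKM in each control and at 32.7, 35.0 and 2.60 FPKM in RBMX total replicates 1 to 3 (log2 fold change 3.29, limma adjusted p = 0.189). At so low a control level FPKM + 1 understates the change of XAF1. IFIT2, a translation-inhibiting antiviral gene, was at 28.3, 32.4 and 13.8 FPKM in control and 331, 391 and 60.8 in RBMX total libraries (log2 fold change 3.04, limma adjusted p = 0.178).

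**Figure D4:**
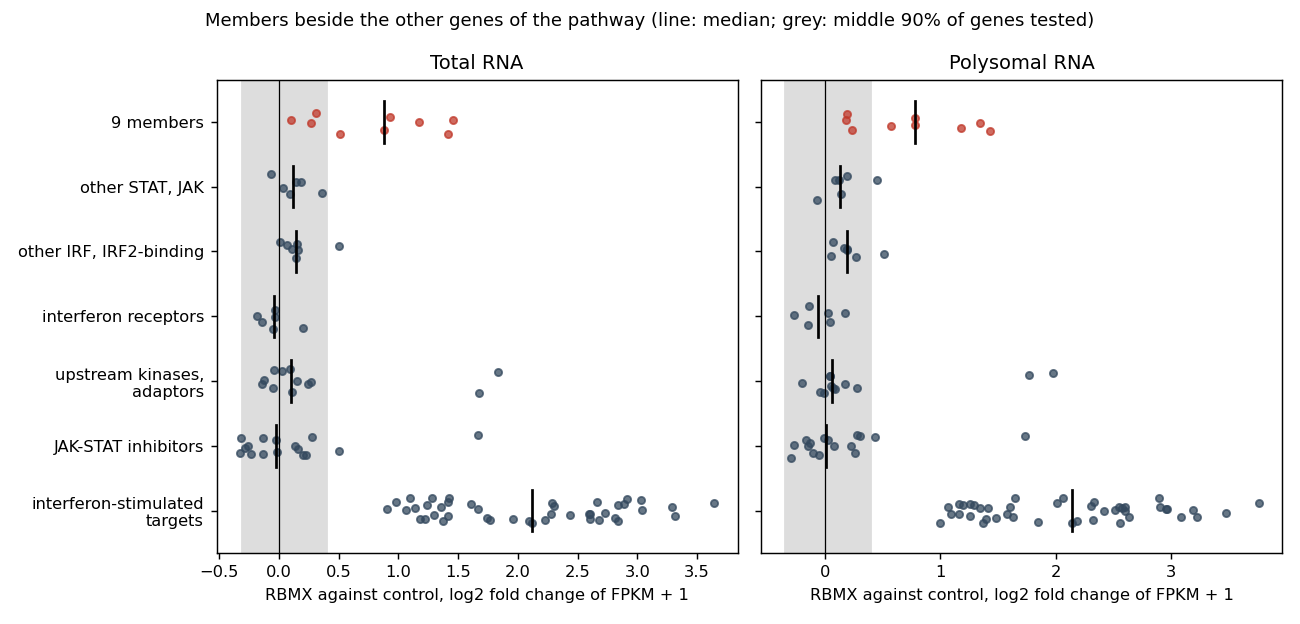
Log2 fold change of FPKM + 1 between RBMX and control cells in total (left) and polysomal RNA (right) for the 9 genes and for the other lists of the pathway, 1 point per gene tested, with a line at each list's median and a grey band for the middle 90% of all genes tested. All 43 interferon-stimulated targets lie to the right of the band, while most receptor chains, upstream kinases and inhibitors lie inside it.

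The rest of the pathway differed little on the whole. Of 7 other STAT and JAK genes, 6 were tested, none passed the threshold, and 2 in total RNA (STAT5A and STAT5B) and 1 in polysomal RNA (STAT5B) were without overlap and higher, as 11.9% and 10.0% of all genes were. Their median log2 fold change was 0.12 in total and 0.13 in polysomal RNA. STAT5B, which relays growth hormone and cytokine signals, was at 19.2, 19.0 and 17.9 FPKM in control and at 20.8, 20.0 and 19.2 in RBMX total replicates 1 to 3 (log2 fold change 0.09, limma adjusted p = 0.439). The groups were apart by a margin smaller than the spread within either of them. The 7 other IRF genes and IRF2-binding proteins had medians of 0.15 and 0.19 in total and polysomal RNA. Of them, 1 in total and 2 in polysomal RNA were without overlap and higher, beside 11.9% and 10.0% of all genes. IRF8 had the largest value at 0.50 and 0.51, without overlap in either fraction (limma adjusted p = 0.176 and 0.400). Its mean total level was 1.58 FPKM in control and 2.67 in RBMX cells, so low that FPKM + 1 understates the change.

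The 6 interferon receptor chains had medians of -0.042 in total and -0.061 in polysomal RNA, none was without overlap and higher, and 1 was without overlap and lower in total RNA (IFNAR1) and 1 in polysomal RNA (IL10RB), as 15.4% and 12.5% of all genes were. IFNAR1, a chain of the type I receptor, was at 21.2, 20.8 and 25.8 FPKM in control and at 18.9, 20.2 and 20.0 in RBMX total replicates 1 to 3, a log2 fold change of -0.18 (limma adjusted p = 0.359). Of 12 kinases and adaptors upstream of IRF3 and IRF7, the median was 0.10 in total and 0.056 in polysomal RNA. Without overlap were 3 higher and 2 lower in total RNA, and 2 higher and 1 lower in polysomal RNA. Of all genes, 11.9% and 10.0% were without overlap and higher, and 15.4% and 12.5% without overlap and lower. The 2 with the largest values were both sensors of viral RNA. DDX58, which encodes RIG-I, was at 16.8, 19.2 and 11.0 FPKM in control and at 73.5, 86.0 and 29.1 in RBMX total replicates 1 to 3 (log2 fold change 1.84, limma adjusted p = 0.176). IFIH1 was at 7.68, 7.98 and 4.54 FPKM in control and 31.2, 33.9 and 11.5 in RBMX total libraries (log2 fold change 1.67, limma adjusted p = 0.183). For both sensors the groups did not overlap, and their polysomal log2 fold changes were 1.98 for DDX58 and 1.76 for IFIH1.

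The other inhibitors of JAK-STAT signalling behaved in different ways. Of 16 tested, 3 were without overlap and higher and 6 without overlap and lower in total RNA, against 3 and 2 in polysomal RNA. Over all genes 11.9% were without overlap and higher in total and 10.0% in polysomal RNA, and 15.4% and 12.5% were without overlap and lower. None of the 16 passed the threshold. The median was -0.019 in total and 0.0048 in polysomal RNA. USP18, which removes ISG15 from proteins and binds the type I receptor to dampen it, was at 22.4, 25.8 and 15.7 FPKM in control and at 87.6, 88.7 and 41.3 in RBMX total replicates 1 to 3. Its log2 fold change was 1.67 (SE 0.35, limma adjusted p = 0.170), with no overlap of the groups. SOCS3, a relative of SOCS1, was at 2.42, 2.33 and 2.81 FPKM in control and 3.86, 4.73 and 3.45 in RBMX total libraries, a log2 fold change of 0.50 (limma adjusted p = 0.174). SOCS4 and SOCS5 had values below 0, with -0.32 in total RNA for each (limma adjusted p = 0.273 for SOCS4 and 0.208 for SOCS5). In polysomal RNA SOCS4 was at -0.30 without overlap, while SOCS5 was at -0.14 and its groups overlapped.

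Across the 12 libraries, which share cultures and fall into groups by vector, the genes most alike in pattern were found by Pearson's r of log2(FPKM + 1), given here as a description. IRF1 was most alike to MX1 (r = 0.998), OAS2 (0.997) and USP18 (0.997), and IRF7 to TRIM21 (0.996), IFIT3 (0.996) and IFIT2 (0.995). STAT2 was most alike to BTN3A3 (0.990), HCP5 (0.989) and DDX60L (0.987), which are different genes from those closest to IRF1 and IRF7. Among the 9 genes, IRF1 and IRF7 had the highest r (0.989), followed by IRF7 and IRF9 (0.977). JAK1 was most alike to SCD (0.998), a fatty acid desaturase, and had r = -0.026 with STAT2 and -0.13 with TYK2. SOCS1 was most alike to C5orf56 (0.977), the transcript that overlaps IRF1 on the opposite strand. IRF2 was most alike to NUB1 (0.993), IRF3 to FOXRED1 (0.972), IRF9 to TRAIP (0.977) and TYK2 to DGKQ (0.970).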

How the data were processed

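Total and polysomal RNA of 6 HEK293 cultures was sequenced as paired-end libraries from 500 ng of RNA. The authors deposited FPKM values for 25268 gene symbols in 12 libraries. The submitters' processing notes name CASAVA 1.8, TopHat2 2.0.13, Cufflinks 2.2.1, Cuffnorm and the hg19 build, without saying which made the FPKM values; further scaling and the annotation are not given in the sources used here. The methods of the study describe a separate analysis of counts on another build, which was not used here. All columns were matched to the labels, by vector, fraction and replicate. Sequencing depth is unknown, so no counting error is given.

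The 9 genes and the lists of related genes were chosen with earlier results of these data known. The genes named with values are the 9, RBMX, in each list up to 4 genes per fraction with the largest change among those whose groups did not overlap, and for each of the 9 the 3 genes with the highest Pearson correlation. Results that concern 2 genes of the lists are not reported here, and the lists were counted without them. C5orf56 and BCL2L12 are named for their overlap with these genes.

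Groups were compared with limma 3.58.1 in R 4.3.3 (lmFit, then eBayes with an intensity trend) on log2(FPKM + 1), for the 14676 genes whose FPKM averaged 0.5 or more across all libraries, with p-values adjusted by Benjamini-Hochberg over all of them and a threshold of 0.05. RBMX was compared with control on the 6 libraries of each fraction, the difference between fractions on all 12, and polysomal with total RNA on the 6 control libraries. These fits had no term for the culture. Because FPKM values are not counts, no count model was applied. Gene positions and overlaps came from GENCODE 29 on GRCh38, whereas the files hold no coordinates, and promoters from RefSeq on GRCh38.p14. Python 3.11.15, pandas 2.3.3 and matplotlib 3.10.9 were used for sequences and plots.

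Libraries of the 2 fractions of a culture share a gradient and are paired in that way. Once group means were subtracted, the fractions of a culture correlated over the genes tested, other than small RNA genes, with r = 0.605, 0.686 and 0.835 in control and 0.222, 0.0198 and 0.654 in RBMX cultures. The fits were tested on simulated data with 200 of the 14676 genes changed. The simulated libraries were drawn independently, without shared cultures, and each changed gene moved by the same amount in every library of the changed group. The recovery below therefore does not carry over to genes such as STAT2, whose RBMX replicate 3 differed from the other replicates. At a log2 fold change of 1, 77% were recovered for total RNA, 76% for polysomal RNA, 66% for the difference between fractions and 75% for polysomal against total RNA. At a log2 fold change of 2 these were 97%, 95%, 93% and 91%. Of the calls 6.45%, 3.93%, 5.92% and 4.60% were unchanged genes, and 0 genes were called when nothing was changed. The alternatives tried were leaving out each replicate, fitting all 12 libraries together, a replicate block, no intensity trend, quantile normalization or median-ratio rescaling, a pseudocount of 0.1, and a filter at a mean FPKM of 1 or no filter. Leaving out replicate 3 of both vectors was added after seeing the data.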

Additional observations from a re-analysis of the deposited data

How the results depend on the processing

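None of the 9 genes passed the threshold in any comparison under another pseudocount, filter, scaling, trend or joint fit, and their directions against control held. Only JAK1 changed direction against control, when control replicate 3 was left out, alone or with RBMX replicate 3. Genes past the threshold numbered 24 in total RNA, 73 with no filter, 60 with all 12 libraries in one fit and 19 to 178 with each replicate left out. In polysomal RNA there were 7, 22 in the joint fit and 9 to 126. For the difference between fractions there were 3, 5 with no filter and 4 to 7, and for polysomal against total RNA in control cells 12, 13 to 199 with a replicate left out and 8 with quantile normalization. Leaving out replicate 3 of both vectors gave 306, 348, 14 and 199 genes. Of the 9 genes, 0 to 3 passed in total and 0 to 2 in polysomal RNA with each replicate left out (IRF9, SOCS1 and STAT2, or IRF1 and SOCS1, without RBMX replicate 3), and 5 and 6 without replicate 3 of both vectors. Replicate numbers are shared by control and RBMX labels, but same-numbered libraries deviated together with r = 0.340, -0.041 and 0.023 in total and -0.17, -0.0056 and 0.068 in polysomal RNA, and 2 and 1 of 6 libraries correlated best with their own number. With a replicate block 13 genes passed in total and 3 in polysomal RNA, and with a block for the culture 5 for the difference and 6 for polysomal against total RNA; none of the 9 was among them. With each replicate left out, JAK1 ran from -0.23 (without control replicate 3) to 0.28 in total and from -0.20 (likewise) to 0.45 in polysomal RNA, and without replicate 3 of both vectors it reversed to -0.24 and -0.21. For the difference between fractions, IRF1 ran from -0.031 (without control replicate 2) to 0.047, with -0.025 without RBMX replicate 2, -0.0015 at a pseudocount of 0.1 and -0.00059 with quantile normalization. IRF7 ran from -0.027 (without RBMX replicate 2) to 0.054, with 0.10 under quantile normalization, and SOCS1 from -0.16 to 0.0065 (without RBMX replicate 3), and both reversed, to -0.0036 and 0.031, without replicate 3 of both vectors. For polysomal against total RNA, IRF1 ran from -0.0017 and IRF3 from -0.030 (both without control replicate 3, as with replicate 3 of both left out) to 0.077 and 0.083, and JAK1 from -0.017 (without control replicate 1) to 0.16. The cause was not tested. The adjusted p of STAT2 in total RNA ran from 0.00383 to 0.552 over all alternatives. Depth is unknown, so the counting error of a gene as low as SOCS1 is not given.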
